A study of Mus musculus with 12 samples.

Results

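The genes examined were those of the AMP-activated protein kinase (AMPK) subunits and of the proteins that hold the cap-binding factor eIF4E in check, in epididymal white adipose tissue (eWAT) of mice. They were the catalytic α subunits *Prkaa1* and *Prkaa2*, the β scaffolds *Prkab1* and *Prkab2*, the γ subunits *Prkag1* and *Prkag2*, the 4E-binding proteins (4E-BPs) *Eif4ebp1*, *Eif4ebp2* and *Eif4ebp3*, and *Eif4e* itself. Matching rows by gene symbol found 9 of the 10 named genes. For the sums, of 23133 genes in all, rows were assigned to genes by Ensembl transcript, or by symbol where the annotation had none. *Eif4ebp3* was not found under its own symbol. Its only row stood under the name of the neighbouring gene ANKHD1, so it was taken by its Ensembl transcript and is given apart from the counts over the 9. All 10 passed the filter for low values, an FPKM (fragments mapped to a transcript, scaled to its length and to the library total) of at least 1 in at least 3 libraries.

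AMPK is a heterotrimer of an α, a β and a γ subunit. The γ subunit senses AMP and ADP, and the active kinase phosphorylates enzymes of lipid synthesis and lipolysis and restrains mTORC1, the growth-promoting kinase complex. mTORC1 in turn phosphorylates the 4E-BPs, which releases eIF4E to assemble the eIF4F complex on the mRNA cap. In fat, both arms bear on how the cell stores lipid and makes protein. The values here are mRNA levels, and they hold nothing on phosphorylation or kinase activity.

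The libraries came from male C57BL/6J mice that entered the experiment at 5 weeks of age and were killed at 21 weeks, after 16 weeks of diet. The ND group received a normal diet and the HFD group a high-fat diet. In the CLE group an ethanol extract of chrysanthemum leaf made up 1.5% by weight of the high-fat diet, and in the LU group the flavonoid luteolin made up 0.003% of it. Each group had 3 libraries, 1 mouse each, which the study's methods describe as representative animals of larger groups. Mice are named here by their label numbers, as in HFD 12. The column used for ND 4 is headed with other letters and its link to this mouse is an inference. Another label, the unexplained letter R, is carried by 4 libraries (ND 3, ND 4, CLE 4 and LU 2, none in HFD). Leaving these out keeps ND 2 as the only ND library.

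Libraries of the same group correlated at 0.978 to 0.991 across genes on the log2 scale. The deposited values keep no read counts, so the depth is unknown. Whole tissue was extracted, and the labelled tissue carried its markers: all 8 adipocyte markers passed the filter. Their summed FPKM was 26981 to 28608 in ND, 14750 to 16778 in HFD, 23314 to 25486 in CLE and 22079 to 27438 in LU. All 10 macrophage markers were also present, summing to 341 to 513 in ND, 2541 to 2926 in HFD, 606 to 936 in CLE and 980 to 1136 in LU. Of 5 mesothelial markers 4, and of 6 endothelial markers 2, were called lower in HFD against ND. These marker levels move with the diet in the same libraries as the results that follow, and their part in those results was not tested. In bulk tissue, fewer cells of a type and less RNA per cell cannot be told apart.

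*Prkag2* was the AMPK subunit whose mRNA differed most clearly between diets, and its rows begin at several sites on chromosome 5 (GRCm38, minus strand). The 250 bases upstream of the 3 start sites in the RefSeq promoter table are shown because the rows that begin at or near each could be followed separately. The sequences are those of RefSeq (GRCm38.p6), 5′ to 3′, with capitals marking the GC box, GGGCGG or its complement CCGCCC.
*Prkag2* distal start, chr5:25100643-25100892: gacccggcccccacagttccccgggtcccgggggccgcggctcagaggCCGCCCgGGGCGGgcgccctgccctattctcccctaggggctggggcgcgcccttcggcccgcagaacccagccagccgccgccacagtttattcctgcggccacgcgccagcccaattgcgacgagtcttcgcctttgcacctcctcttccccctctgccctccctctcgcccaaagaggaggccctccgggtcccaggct
*Prkag2* middle start, chr5:24995754-24996003: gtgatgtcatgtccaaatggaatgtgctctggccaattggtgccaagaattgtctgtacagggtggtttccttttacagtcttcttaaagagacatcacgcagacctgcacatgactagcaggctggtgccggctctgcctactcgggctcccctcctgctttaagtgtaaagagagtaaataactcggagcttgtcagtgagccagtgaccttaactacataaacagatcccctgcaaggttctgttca
*Prkag2* proximal start, chr5:24908510-24908759: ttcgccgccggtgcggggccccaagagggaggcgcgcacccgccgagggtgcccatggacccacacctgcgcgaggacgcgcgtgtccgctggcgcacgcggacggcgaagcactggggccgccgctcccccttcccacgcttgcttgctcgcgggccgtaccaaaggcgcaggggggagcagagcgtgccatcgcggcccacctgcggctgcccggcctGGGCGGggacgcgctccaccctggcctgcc
The distal window held 2 GC boxes, the proximal window 1 and the middle window 0. Of all 32851 mouse promoter windows of this length in the RefSeq table, 32.7% held at least 1 GC box on either strand, so its presence does not set these windows apart. The CCAAT box (CCAAT or ATTGG) matched on both strands within a single stretch, ccaattgg, of the middle window, and at 1 place in the distal window, against 33.8% of all windows with at least 1. Neither TATAAA, present in 12.4% of all windows on either strand, nor CACGTG, present in 6.02%, was found in any of the 3. A match of letters is a description of the sequence and not a mapped binding site.

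Among the γ subunits, *Prkag2* mRNA was lower in HFD than in ND and lay between these levels in the CLE and LU groups. It measured 33.9, 34.4 and 32.3 FPKM in ND 2, 3 and 4, and 19.8, 20.7 and 22.3 FPKM in HFD 12, 15 and 18. It measured 28.7, 27.2 and 29.6 FPKM in CLE 2, 4 and 11, and 27.9, 24.6 and 25.5 FPKM in LU 2, 3 and 8. All HFD libraries lay below all others, and all ND libraries above all others. The log2 fold change on the scale of FPKM + 1 was -0.66 ± 0.08 (SE, n = 3 per group) for HFD against ND, with an adjusted p of 4.8e-05 from limma with Benjamini-Hochberg adjustment over 12814 genes. A gene is called here when this adjusted p is under 0.05 and the fold change exceeds 1.5, and *Prkag2* was called lower. With CLE it was higher than in HFD by 0.43 ± 0.08 (limma adjusted p = 0.0017), and with LU by 0.30 ± 0.08 (limma adjusted p = 0.017). Both passed by adjusted p but stayed under the fold limit. The CLE difference passed in 23 of 24 alternatives. It missed the adjusted p with the row of highest mean in place of the sum (limma, 0.053). The LU difference missed it with that row (0.072) and without HFD 12 (0.072), HFD 15 (0.053) or LU 2 (0.063), all by limma. Without the R libraries, which keeps ND 2 alone in its group, the LU difference was 0.25 and did not pass. *Prkag2* remained below ND with LU at -0.35 ± 0.08 (limma adjusted p = 0.015), again under the fold limit. This difference missed the adjusted p without LU 8 (0.059), with the highest row (0.16) and with only the 2 groups compared in the fit (0.067), all by limma. It was -0.42 without the R libraries and did not pass. CLE against ND gave -0.23 ± 0.08 and did not pass (limma adjusted p = 0.12). CLE and LU differed by 0.13, with a 95% interval of -0.05 to 0.30, which did not pass. The exact two-sided permutation test over libraries can give no p below 0.1 with 3 against 3, and it gave 0.1 for each member whose groups did not overlap.

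The rows that begin at the distal start carried 83.7% of the *Prkag2* signal, and those of the proximal start 11.8%. The middle start carried 1.83%, and 5 rows that begin further downstream, some of them annotated transcripts, carried the other 2.66%. The distal rows averaged 27.1 ± 1.1 FPKM (SD, n = 3) in ND, 18.6 ± 1.0 in HFD, 23.1 ± 1.9 in CLE and 22.4 ± 2.2 in LU. The proximal rows read 4.61, 5.43 and 4.91 FPKM in ND and 1.75, 1.18 and 2.37 FPKM in HFD. They read 2.83, 3.30 and 3.77 FPKM in CLE and 2.52, 2.40 and 3.57 FPKM in LU. Both sets of rows were lower in HFD than in every ND, CLE and LU library. The middle start, a single row, did not exceed 0.80 FPKM in any library, and its ND and HFD values overlapped. Rows of 1 gene share reads that the quantification divided among them, so the split by start is less certain than the sum.

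**Figure D1:**
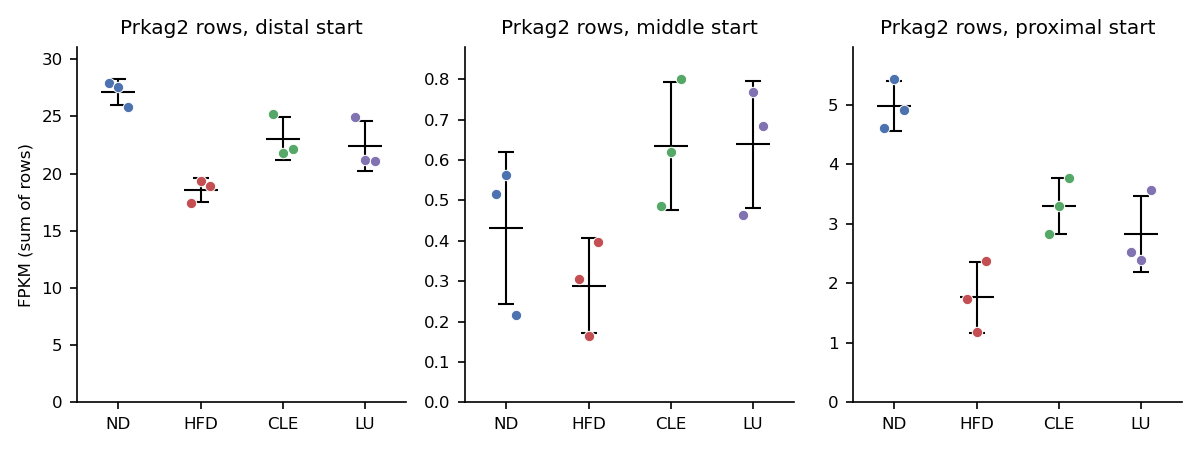
Summed FPKM of the *Prkag2* rows that begin at the distal, the middle and the proximal start, by diet group (n = 3 mice per group). Points are libraries, the horizontal mark is the mean and the bars are ± 1 SD; each panel has its own axis from 0. The HFD libraries are the lowest at the distal start (17.4 to 19.3) and at the proximal start (1.18 to 2.37).

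*Prkag1*, the γ1 subunit, showed no change that passed. Its level was 25.7, 27.6 and 27.2 FPKM in ND, 22.4, 24.9 and 24.1 in HFD, 22.8, 27.8 and 21.8 in CLE and 26.7, 27.0 and 25.3 in LU. The HFD libraries lay below those of ND and LU without overlap, yet the log2 fold change of HFD against ND was only -0.17 (95% interval -0.38 to 0.04, limma adjusted p = 0.16). *Prkag2* made up 55.5% ± 1.3 (SD, n = 3) of the sum of *Prkag1* and *Prkag2* in ND, 46.8% ± 1.4 in HFD, 54.3% ± 4.3 in CLE and 49.7% ± 1.8 in LU. The share lay above every HFD library in all ND and all CLE libraries, and LU 3, at 47.6%, fell below HFD 18, at 48.1%. FPKM is a level per transcript length, so the genes can be set side by side within a library. The sums also count rows that are not full coding transcripts. *Prkab1* and *Prkab2* each have several retained-intron rows, and the largest of these held 16.0% and 15.6% of their signal. A single row of a modified transcript held 41.1% of the *Prkab2* signal, and another 40.4% of that of *Eif4ebp2*. The unmodified coding row of *Prkab2* held 13.9%. Shares and ratios between genes are less certain for this reason.

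A further γ subunit, *Prkag3*, the γ3 form known mainly from skeletal muscle, was not among the 10 genes and was picked out after its values were seen. It measured 2.69, 4.04 and 4.61 FPKM in ND, 4.0, 3.0 and 3.85 in HFD, 5.99, 6.61 and 5.89 in CLE and 6.57, 4.78 and 5.25 in LU. The CLE and LU libraries all lay above those of ND and HFD, which overlapped. It was called higher with CLE than in HFD (0.64 ± 0.16, SE, limma adjusted p = 0.0085) and passed by adjusted p alone with LU (0.50 ± 0.16, limma adjusted p = 0.034). With *Prkag3* added to the sum, the *Prkag2* share was 52.3% ± 2.0 in ND, 43.2% ± 1.0 in HFD, 48.6% ± 4.0 in CLE and 44.9% ± 1.2 in LU (SD, n = 3). On this sum the HFD libraries stayed below those of ND, while CLE 4, at 44.1%, and LU 3, at 43.6%, fell below HFD 18, at 44.4%.

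The catalytic subunits were dominated by *Prkaa1*, which encodes α1. It measured 35.9, 25.8 and 27.3 FPKM in ND, 22.6, 24.6 and 19.8 in HFD, 22.2, 28.8 and 28.7 in CLE and 22.5, 28.2 and 19.2 in LU. ND and HFD did not overlap, but the log2 fold change of -0.39 ± 0.16 (SE) did not pass (limma adjusted p = 0.069), and the CLE and LU libraries overlapped those of HFD. *Prkaa2*, which encodes α2, the form prominent in muscle, made up 8.30% of the summed α mRNA in ND and 6.71% in HFD (means of 3 libraries). It measured 2.70, 3.13 and 2.08 FPKM in ND, 1.79, 1.58 and 1.43 in HFD, 2.55, 2.2 and 1.74 in CLE and 2.11, 2.14 and 1.88 in LU. HFD lay below ND at -0.48 ± 0.12 (limma adjusted p = 0.0071), past the adjusted p and short of the fold limit. The ratio of means was 0.607, and the fold limit was applied on the scale of FPKM + 1, which understates changes of low genes. The log2 fold changes of 0.28 for CLE and 0.23 for LU against HFD did not pass (limma adjusted p = 0.10 and 0.19), although the LU libraries all lay above those of HFD. Of 6 skeletal muscle markers, 5 were in the table and none passed the filter. Their summed FPKM was 6.44 in HFD 12 and 16.2 in CLE 11 and at most 1.15 in the other libraries, and the *Prkaa2* values of these libraries, 1.79 and 1.74, were the highest of the HFD group and the lowest of the CLE group.

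Neither β subunit, the scaffold that carries the glycogen-binding module, passed in any comparison. *Prkab1* ranged from 14.1 to 19.1 FPKM over the 12 libraries and *Prkab2* from 10.2 to 14.3, and every group overlapped every other in both. For HFD against ND the log2 fold change was -0.10 (95% interval -0.34 to 0.14) for *Prkab1* and -0.11 (95% interval -0.38 to 0.16) for *Prkab2*. These intervals leave room for changes of up to about 0.38 on the log2 scale. *Prkab2* made up 41.3% ± 5.2 of the summed β mRNA in ND and 41.0% ± 3.5 in HFD (SD, n = 3), so the balance of the β forms differed by less than its spread.

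**Figure D2:**
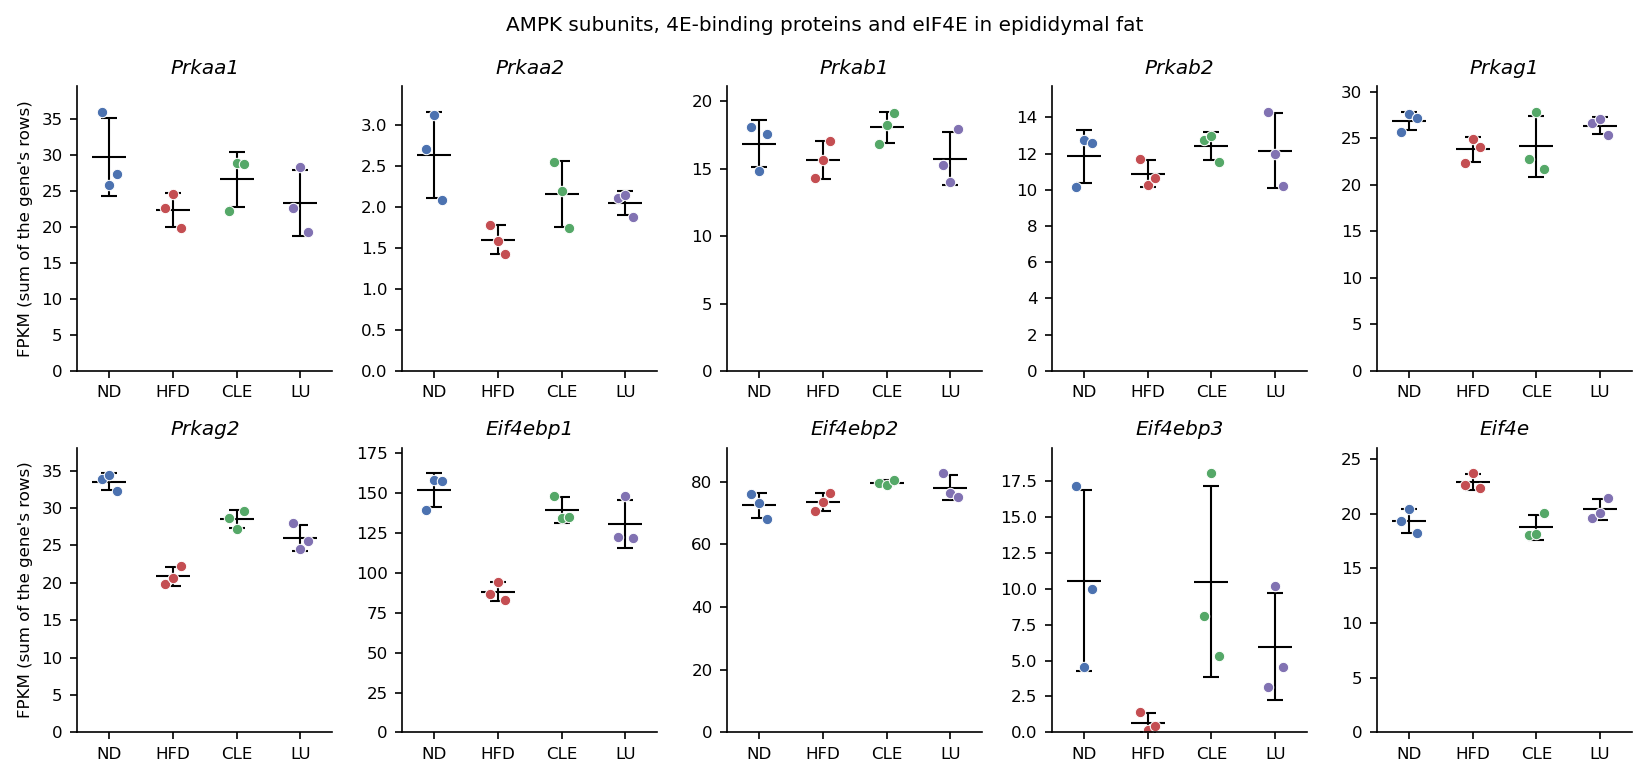
FPKM of each of the 10 genes, summed over its rows, by diet group. Points are libraries (n = 3 mice per group), the horizontal mark is the mean and the bars are ± 1 SD; each panel has its own axis from 0. The HFD libraries of *Prkag2*, *Eif4ebp1* and *Eif4ebp3* lie below all other libraries, and those of *Eif4e* above all others.

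*Eif4ebp1*, which encodes 4E-BP1 and lies at chr8:27260329-27276674 (GRCm38), was the most abundant of the 10 mRNAs in every group. It measured 140, 158 and 157 FPKM in ND, 87.0, 94.5 and 82.8 in HFD, 148, 134 and 135 in CLE and 123, 148 and 122 in LU. Every HFD library lay below all 9 others, and the CLE and LU libraries overlapped those of ND. The mean in HFD was 0.581 times that in ND, a log2 fold change of -0.78 ± 0.10 (SE, n = 3 per group, limma adjusted p = 6.7e-05), which was called. With CLE it was higher than in HFD by 0.66 ± 0.10 (limma adjusted p = 0.00049), which was called. With LU it was higher by 0.56 ± 0.10 (limma adjusted p = 0.0021), a ratio of means of 1.48 that fell just short of the fold limit. The call for LU was reached, at 0.60 to 0.61, without HFD 15, without LU 2, without LU 8 or without the R libraries. CLE and LU differed by 0.10 (95% interval -0.12 to 0.31), which did not pass. The adipocyte marker sum was likewise lowest in HFD, and its part in the *Eif4ebp1* values was not tested.

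*Eif4ebp2* stayed within a narrow range beside it. It measured 75.9, 73.0 and 68.2 FPKM in ND, 70.7, 73.3 and 76.4 in HFD, 79.6, 79.1 and 80.5 in CLE and 82.6, 76.3 and 75.3 in LU. HFD and ND overlapped, with a log2 fold change of 0.02 (95% interval -0.14 to 0.19, limma adjusted p = 0.83). The CLE libraries lay above those of ND and HFD, but neither difference passed, at 0.14 and 0.12 (limma adjusted p = 0.29 and 0.26).

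*Eif4ebp3* had the widest relative spread. It measured 17.1, 4.56 and 9.98 FPKM in ND, 1.44, 0.164 and 0.462 in HFD, 8.11, 18.01 and 5.34 in CLE and 3.17, 10.2 and 4.55 in LU. Every HFD library lay below all others, while ND, CLE and LU overlapped. It was called lower in HFD than in ND at -2.69 ± 0.51 (SE, limma adjusted p = 0.0011) and higher than in HFD with CLE at 2.68 ± 0.51 (limma adjusted p = 0.0021). With LU it was called higher at 1.98 ± 0.51 (limma adjusted p = 0.015), but not without HFD 15 (1.75, limma adjusted p = 0.057) or without LU 3 (1.58, limma adjusted p = 0.063). The gene lies within the transcripts of a read-through locus with ANKHD1, and 14 other rows overlap it. Those rows summed to 9.14 ± 0.85 FPKM in ND, 6.47 ± 1.08 in HFD, 6.64 ± 1.21 in CLE and 7.58 ± 0.63 in LU (SD, n = 3), so the division of reads among them makes the level of *Eif4ebp3* uncertain. With those rows added, a choice made after seeing the data, the log2 fold changes were -1.30 (limma adjusted p = 0.0040) for HFD against ND, 1.08 (0.018) for CLE and 0.81 (0.069) for LU against HFD.

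*Eif4e*, the cap-binding protein that the 4E-BPs bind, moved the other way. It measured 19.3, 20.4 and 18.2 FPKM in ND, 22.6, 23.7 and 22.4 in HFD, 18.1, 18.1 and 20.1 in CLE and 19.6, 20.1 and 21.4 in LU. All HFD libraries lay above all others. HFD exceeded ND by 0.23 ± 0.08 (SE, limma adjusted p = 0.026), and CLE lay below HFD at -0.27 ± 0.08 (limma adjusted p = 0.019), both short of the fold limit. The first passed in 16 of 24 alternatives. It missed the adjusted p by limma with the letter R as a covariate (0.099) and with quantile normalization (0.090). A fit of only the 2 groups compared also missed it (limma adjusted p = 0.052). The same held without ND 4 (0.092), HFD 12 (0.058), HFD 15 (0.087) or HFD 18 (0.050). Without the R libraries, which keeps ND 2 alone in its group, the difference was 0.23 and did not pass. The second passed in 20 of 24 and missed it by limma without HFD 15 (0.069), CLE 2 (0.062) or CLE 4 (0.065). Without the R libraries the second was -0.25 and did not pass. LU against HFD gave -0.16 ± 0.08 and did not pass (limma adjusted p = 0.15).

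Set against each other within a library, the summed mRNA of the 3 4E-BPs was 12.0, 11.5 and 12.9 times that of *Eif4e* in ND and 7.03, 7.09 and 7.14 times in HFD. It was 13.1, 12.8 and 10.99 times in CLE and 10.6, 11.7 and 9.40 times in LU. The ratio was lower in every HFD library than in any other, and no test was made of it. *Eif4ebp1* made up 64.6% ± 4.0 of the 4E-BP sum in ND, 54.3% ± 2.2 in HFD, 60.7% ± 2.4 in CLE and 60.8% ± 2.2 in LU (SD, n = 3). In HFD the share of each library lay between 51.9% and 56.2%, below every other library.

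**Figure D3:**
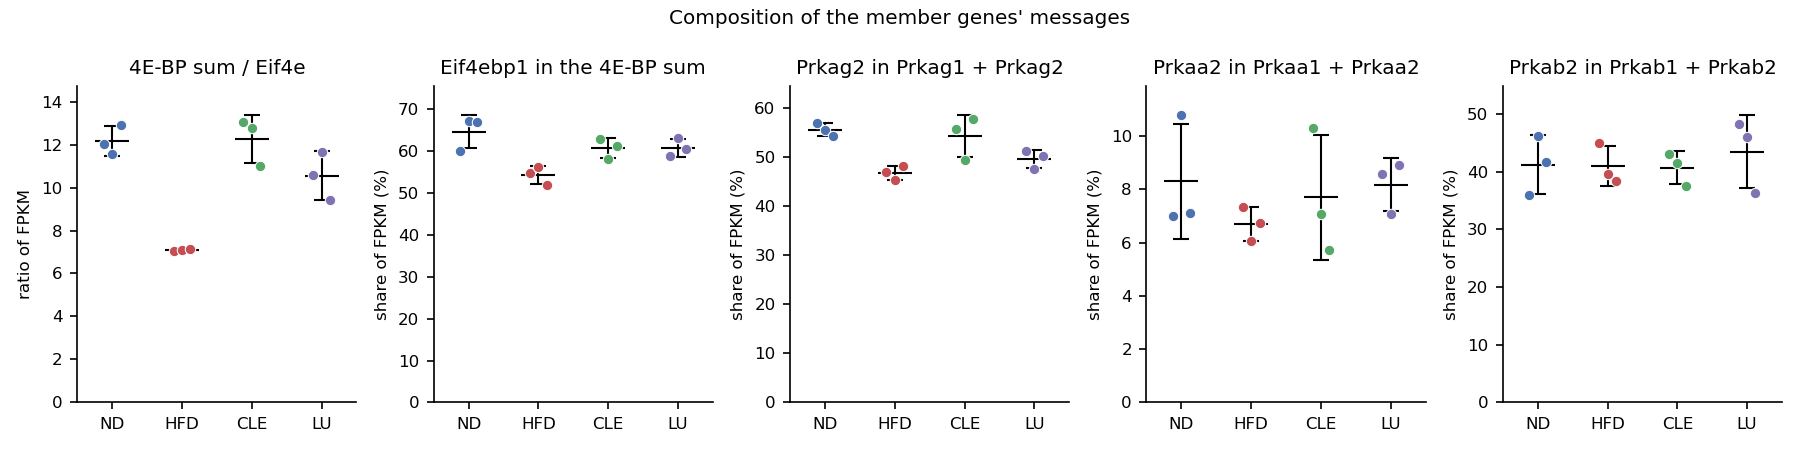
Within-library ratio of the summed 4E-BP mRNA to *Eif4e*, and shares in percent of *Eif4ebp1* in the 4E-BP sum, of *Prkag2* in *Prkag1* + *Prkag2*, of *Prkaa2* in *Prkaa1* + *Prkaa2* and of *Prkab2* in *Prkab1* + *Prkab2*, by diet group. Points are libraries (n = 3 mice per group), the horizontal mark is the mean and the bars are ± 1 SD, on axes from 0. The HFD ratios, 7.03 to 7.14, lie below all others, while the *Prkaa2* and *Prkab2* shares overlap between groups.

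The order of the levels was alike in the 4 groups, with *Eif4ebp1* first and *Eif4ebp2* second, apart from each other and from the next gene in every group. *Prkag2* ranked 3rd in ND and CLE and 6th in HFD, but its range overlapped that of its neighbour *Prkaa1* in all 4 groups. *Prkab1* ranked 7th and *Prkab2* 8th in every group, and their ranges overlapped in LU. *Prkaa2* was last in ND, CLE and LU, and *Eif4ebp3* was last in HFD, where the ranges of these 2 genes overlapped.

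Counted over the 9 genes found by symbol, HFD against ND gave 0 called higher and 2 called lower (*Prkag2* and *Eif4ebp1*), where 14.9% of all genes tested were called higher and 10.8% lower. By adjusted p alone, 1 was higher (*Eif4e*) and 3 lower, against 25.7% and 24.8% of all genes. In 6 of the 9 the groups did not overlap, against 59.5% of all genes. The median log2 fold change was -0.17 over the 9 and -0.02 over all genes.

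CLE against HFD gave 1 called higher (*Eif4ebp1*) and 0 lower of the 9, where 6.34% of all genes were called higher and 10.2% lower. By adjusted p alone, 2 were higher and 1 lower, against 15.6% and 18.2%, and 4 did not overlap, against 50.6%. LU against HFD gave 0 called in either direction by limma, where 4.77% were called higher and 7.68% lower. By adjusted p alone, 2 were higher (*Eif4ebp1* and *Prkag2*) and 0 lower, against 13.3% and 13.8%. The same 2 genes were those with an unadjusted p under 0.05, and 5 did not overlap, against 47.7%. The medians over the 9 were 0.20 for CLE and 0.14 for LU against HFD, and 0.01 and 0.03 over all genes. These comparisons share the HFD libraries, so their values are not independent of each other.

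Against ND, 0 of the 9 were called by limma with CLE, where 2.98% of all genes were called, and 0 with LU, where 6.57% were. *Prkag2* had an unadjusted p under 0.05 with both, and *Eif4ebp1* with LU (0.0499). CLE against LU gave 0 of the 9, 0 of them with an unadjusted p under 0.05, where 0.0078% of all genes were called. The widest 95% interval of that difference among the 9 was that of *Prkaa1*, -0.17 to 0.55, and the CLE and LU libraries overlapped in each of the 10 genes. The extract and luteolin were given at different doses, so this sets the diets side by side and not the compounds at a matched dose.

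**Figure D4:**
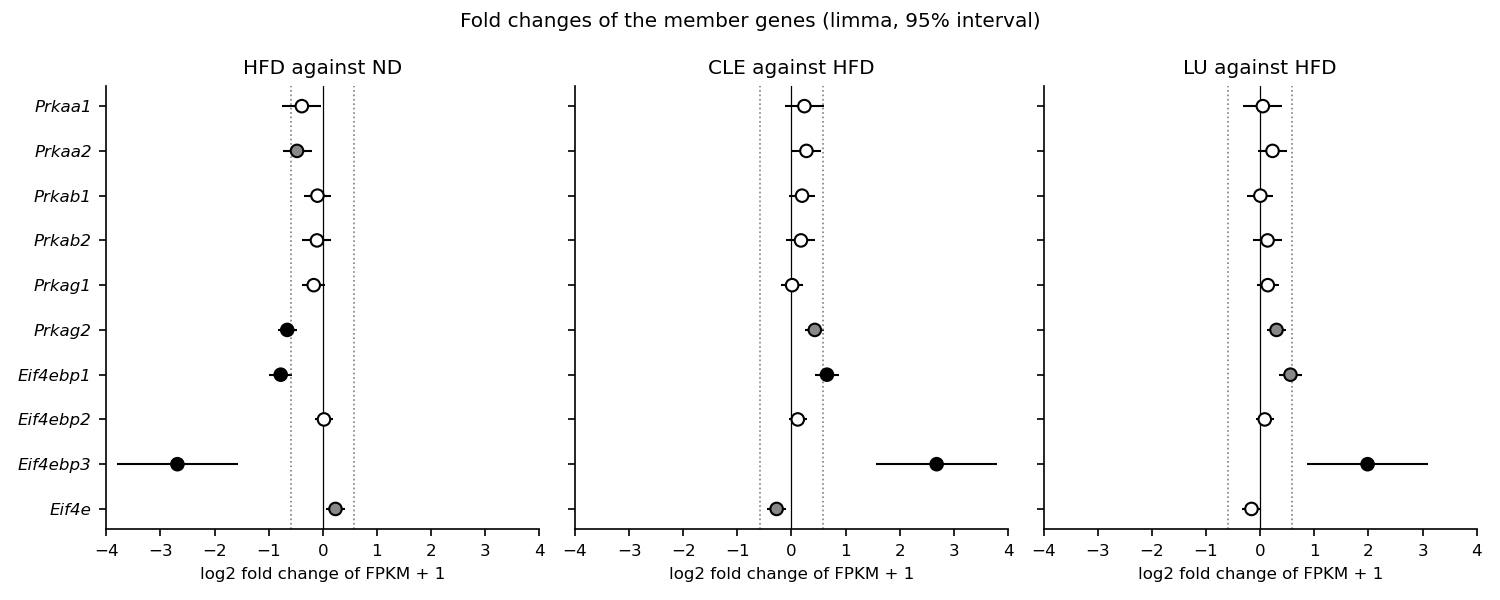
Log2 fold changes on the scale of FPKM + 1 with 95% intervals (limma, n = 3 per group) for the 10 genes in HFD against ND, CLE against HFD and LU against HFD. Filled black points were called, grey points passed the adjusted p alone, open points passed neither, and dotted lines mark a fold change of 1.5. *Eif4ebp1* lies at -0.78, 0.66 and 0.56, and *Prkag2* at -0.66, 0.43 and 0.30.

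The rest of the pathway was followed in 7 lists of other genes. The lists share genes, among them *Rptor*, *Eef2k*, *Ddit4* and *Sesn2*, and a call of such a gene counts in each list that holds it. Over all genes tested, 14.9% were called higher and 10.8% lower in HFD against ND, 6.34% and 10.2% in CLE against HFD, and 4.77% and 7.68% in LU against HFD, and the share of each list is given beside its counts.

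The first list held 16 genes, 15 upstream kinases and regulators of AMPK and *Prkag3*. Without *Prkag3*, 4 (26.7%) were called higher and 1 (6.67%) lower in HFD against ND. With CLE 1 (6.67%) was higher and 2 (13.3%) were lower than in HFD, and with LU 1 (6.67%) was called each way. The call of *Prkag3* makes it 2 of 16 higher with CLE (12.5%). *Fnip2*, a folliculin partner that binds AMPK, rose from 5.12 ± 0.56 FPKM in ND to 24.2 ± 5.0 in HFD and measured 7.42 ± 2.31 in CLE and 8.76 ± 2.04 in LU (SD, n = 3). Its log2 fold changes were 2.02, -1.59 and -1.37 for HFD against ND, CLE against HFD and LU against HFD, with limma adjusted p of 1.3e-05, 0.00018 and 0.00084. *Sesn3*, a sestrin, was called higher in HFD (1.40, limma adjusted p = 5.8e-06) and lower with CLE (-0.66, limma adjusted p = 0.0021). *Cab39*, a partner of the AMPK kinase LKB1, was called higher in HFD (0.70, limma adjusted p = 3.7e-05). *Sesn2*, a stress-induced sestrin, was the gene called lower in HFD than in ND (-1.27, limma adjusted p = 0.00065). It was called higher than in HFD with CLE (1.11, limma adjusted p = 0.0029) and with LU (0.90, limma adjusted p = 0.012).

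Of 12 AMPK-related kinases 10 were tested, *Brsk1* and *Brsk2* being too low, and 2 (20%) were called higher and 1 (10%) lower in HFD, near the 14.9% and 10.8% of all genes. With CLE, and again with LU, 1 (10%) was higher and 2 (20%) were lower than in HFD. *Sik2*, a salt-inducible kinase abundant in fat, fell from 205 ± 26 FPKM in ND to 74.6 ± 4.1 in HFD and measured 161 ± 41 in CLE and 131 ± 31 in LU (SD, n = 3). All 3 comparisons were called, with log2 fold changes of -1.44, 1.06 and 0.77 (limma adjusted p = 0.00015, 0.0022 and 0.016). *Nuak2* and *Mark1* were called in the opposite directions, at 1.31 and 0.70 for HFD against ND, -0.83 and -0.96 for CLE and -0.69 and -0.69 for LU against HFD.

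Of 21 AMPK substrates, 2 (9.52%) were called higher and 7 (33.3%) lower in HFD against ND, where 14.9% and 10.8% of all genes were. With CLE 8 (38.1%) were higher and 0 lower than in HFD, against 6.34% and 10.2%, and with LU 1 (4.76%) was higher and 0 lower, against 4.77% and 7.68%. The list median was -0.36, 0.16 and 0.25 in these comparisons, and that of all genes -0.02, 0.01 and 0.03. *Acaca* and *Acacb*, the acetyl-CoA carboxylases of fatty acid synthesis and its control, fell in HFD from 160 ± 47 to 46.0 ± 3.9 FPKM and from 69.3 ± 31.6 to 17.8 ± 2.8 FPKM (SD, n = 3, log2 fold changes -1.74 and -1.82, limma adjusted p = 2.9e-05 and 0.00015). Both were called higher with CLE than in HFD, at 0.62 and 1.27 (limma adjusted p = 0.032 and 0.0033). With LU neither passed (limma adjusted p = 0.069 and 0.10). *Txnip*, a regulator of glucose uptake, was called in all 3 comparisons, at -1.16, 0.73 and 0.74. *Lipe* and *Pnpla2*, the hormone-sensitive and adipose triglyceride lipases, were called lower in HFD than in ND, at -0.62 and -0.92. They were called higher with CLE than in HFD, at 0.59 and 0.88 (limma adjusted p = 0.00064 and 0.00077). *Lipe* is also among the adipocyte markers, 6 of 8 of which were called lower in HFD against ND and 6 higher with CLE.

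Of 20 genes of mTORC1 and its regulators 18 were tested, *Rragb* and *Rragd* being too low. In HFD 1 (5.56%) was called higher and 2 (11.1%) lower, against 14.9% and 10.8% of all genes. With CLE 1 (5.56%) was called each way, against 6.34% and 10.2%, and with LU 1 (5.56%) was higher and 0 lower, against 4.77% and 7.68%. *Rptor*, the raptor subunit, was called higher in HFD (16.7 ± 0.3 against 10.8 ± 0.9 FPKM, SD, n = 3). *Grb10*, an adaptor that restrains insulin signalling, fell from 38.8 ± 12.2 to 14.4 ± 1.2 FPKM, and was called higher with CLE (31.7 ± 7.1) and LU (25.1 ± 5.2) than in HFD. *Ddit4*, an mTORC1 inhibitor, was called lower in HFD (-1.20, limma adjusted p = 0.012), and *Lamtor1*, an anchor of mTORC1 at the lysosome, lower with CLE (-0.59, limma adjusted p = 0.0023). Of 10 S6 kinases and other outputs, 1 (10%) was called higher and 0 lower in HFD, 1 (10%) each way with CLE, and 0 higher and 1 (10%) lower with LU. *Tfeb*, a transcription factor of lysosomal genes, was called higher in HFD (1.00) and lower with CLE (-1.02) and LU (-0.80), and *Eef2k* was the one called higher with CLE (0.59).

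Of 14 cap-binding and eIF4F factors, 3 (21.4%) were called higher and 2 (14.3%) lower in HFD against ND, against 14.9% and 10.8% of all genes. With CLE 2 (14.3%) were called each way, against 6.34% and 10.2%, and with LU 1 (7.14%) was higher and 2 (14.3%) were lower, against 4.77% and 7.68%. The eIF4A helicases went in opposite directions. *Eif4a1* measured 136 ± 11 FPKM in ND, 254 ± 12 in HFD, 166 ± 19 in CLE and 165 ± 9 in LU, and *Eif4a2* 361 ± 18, 196 ± 13, 327 ± 30 and 312 ± 36 (SD, n = 3). The log2 fold changes for HFD against ND were 0.90 and -0.88 (limma adjusted p = 2.3e-05 and 4.6e-05). *Cyfip1*, another protein that binds eIF4E, rose from 23.8 ± 0.5 to 51.5 ± 2.4 FPKM in HFD (log2 fold change 1.08) and was called lower with CLE (-0.78) and LU (-0.70).

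ATF4 is a stress-induced transcription factor known to activate *Eif4ebp1*. Its own mRNA measured 59.0 ± 11.4 FPKM in ND, 54.9 ± 0.9 in HFD, 50.4 ± 8.5 in CLE and 55.7 ± 6.6 in LU (SD, n = 3). *Atf4* did not pass in HFD against ND, CLE against HFD or LU against HFD (limma adjusted p = 0.66, 0.51 and 0.96). Its part in the *Eif4ebp1* values was not tested. Of 12 genes of the list of ATF4 and its targets, 11 were tested, *Slc7a11* being too low. In HFD 2 (18.2%) were called higher and 5 (45.5%) lower, against 14.9% and 10.8% of all genes. With CLE 4 (36.4%) were higher and 2 (18.2%) lower, against 6.34% and 10.2%, and with LU 3 (27.3%) were higher and 1 (9.09%) lower, against 4.77% and 7.68%. *Atf3*, a stress-induced factor, rose from 2.74 ± 0.45 to 71.0 ± 8.1 FPKM in HFD and measured 10.4 ± 10.2 in CLE and 14.3 ± 4.2 in LU (SD, n = 3). *Asns* and *Chac1* were called lower in HFD, at -1.53 and -1.39, and higher with CLE, at 0.85 and 0.60. With LU, *Chac1* was called higher at 0.83, and *Asns* did not pass (0.65, limma adjusted p = 0.055). *Ddit3* was called higher in HFD at 0.64 and lower with CLE at -0.66. *Sesn2*, also on the upstream list, was called higher with both CLE and LU.

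**Figure D5:**
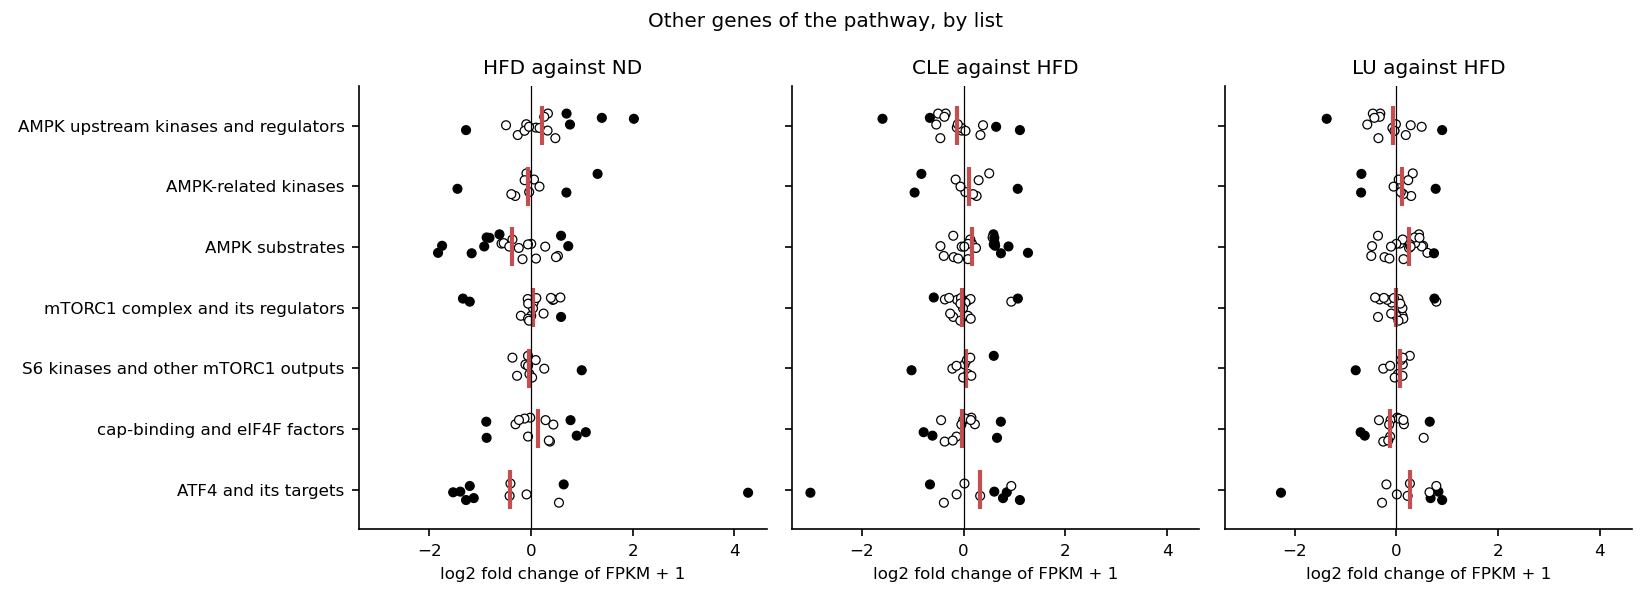
Log2 fold changes on the scale of FPKM + 1 of the other pathway genes, by list, in HFD against ND, CLE against HFD and LU against HFD (limma, n = 3 per group). Each point is a gene, filled points were called, the red bar is the list median, and vertical scatter has no meaning. Of the AMPK substrates 7 were called lower in HFD and 8 higher with CLE.

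The genes whose profiles over the 12 libraries were nearest to those of the called members were found by the root mean square (RMS) difference of centred log2(FPKM + 1) values. Nearest to *Eif4ebp1* was *Tspo*, a mitochondrial outer membrane protein, with an RMS difference of 0.049 against a spread of 0.312 for *Eif4ebp1* itself. *Nod1* (0.071) and *Cib2* (0.078) followed. Nearest to *Prkag2* were *Arl2bp* (0.078), *Ddx27* (0.081) and *Ndufa10* (0.084), against its own spread of 0.245. Nearest to *Eif4ebp3* were *Inafm1* (0.527), *Inmt* (0.546) and *Pck1* (0.586), the last the key enzyme of glyceroneogenesis in fat, against a spread of 1.26, so these profiles were less alike.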

How the data were processed

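RNA of eWAT from 3 mice of each of 4 groups was measured, 12 libraries in all. The authors made paired-end libraries with reads of 100 bases. CASAVA 1.8.2, Bowtie2 2.2.3, TopHat2 2.0.12 and Cufflinks 2.2.1 are named in the submitters' processing notes. The authors deposited FPKM values for 152210 transcript rows. The genome build is not given in the sources used here; 87.6% of unmodified Ensembl rows had the start and end of GENCODE M21 (GRCm38).

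Rows with an Ensembl transcript, unmodified or of class code = or j, were summed per gene (142884 rows, 23133 genes). This assigned rows by Ensembl transcript, or by the table's gene name where GENCODE had none. Another 9326 rows were left out. Columns were mapped to mice by their labels. The column for ND 4 is headed MD4; it was assigned from its number, its letter R and its place among ND columns. The table has 15 FPKM columns; 3 of them fit no label and stayed out, as did the authors' own columns of differential calls. Depth could not be recovered: 28.6% of values lay above 0 but under 1e-06, so they are not multiples of whole reads.

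Values were tested as log2(FPKM + 1) with limma 3.58.1 in R 4.3.3, in 1 fit over the 12 libraries, for the 12814 genes that reached 1 FPKM in 3 or more libraries. A call required both a p adjusted by Benjamini-Hochberg below 0.05 and a change of more than 1.5-fold. The study's own count-based test could not be run on FPKM. The fit was tested on simulated data. Exact two-sided permutation tests accompany single members. FPKM + 1 understates changes of low genes.

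The members, lists and tests were chosen with earlier results of these data known. Named genes are the 10 members and up to 3 called genes with the smallest adjusted p per list and comparison. The 3 genes nearest in profile to each called member are named too. *Prkag3* and *Atf4* were added after their values were seen. Alternatives covered the pseudocount, the filter, scaling, row choice, the letter R, a replicate block and leaving out each library.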

Additional observations from a re-analysis of the deposited data

How the results depend on the processing

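The calls of *Eif4ebp1*, *Prkag2* and *Eif4ebp3* in HFD against ND, and of *Eif4ebp1* and *Eif4ebp3* in CLE against HFD, held in each alternative fitted. By adjusted p alone, 4 members passed in HFD against ND in place of 2, 3 in CLE against HFD in place of 1, 2 in LU against HFD in place of 0 and 1 in LU against ND in place of 0. For LU against HFD, 1 was called without the letter R libraries, and leaving out 1 library gave 0 to 1 (*Eif4ebp1*). *Prkaa2* in HFD against ND was called with a pseudocount of 0.1 (-0.67) and without ND 4 (-0.59), the library assigned by inference; a filter on a mean FPKM of 5 removed it. The adjusted p of *Eif4ebp3* in LU against HFD ran from 0.0092 to 0.069 over its alternatives. The letter R had no member with an adjusted p under 0.05 as a covariate; *Prkab2* had the smallest unadjusted p, 0.013.

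Adding *Prkag3* to the sum, chosen after seeing the data, kept the *Prkag2* share of every HFD library below those of ND. The CLE and HFD shares, which did not overlap before, overlapped once *Prkag3* was added. The *Eif4ebp1* share in HFD minus ND was -5.73 percentage points without the letter R libraries and -6.22 from the highest row, and in CLE minus HFD 3.63 without class j rows and 4.08 from the highest row. The *Prkab2* share was 5.09 (HFD minus ND) without the letter R libraries and 4.42 (CLE minus HFD) from the highest row. The *Prkag2* share without class j rows was -11.8 (HFD minus ND) and 4.79 (LU minus HFD).

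Only fold changes that had not passed changed sign. The values were *Prkab2* 0.087 (HFD against ND), *Eif4ebp2* -0.048 (HFD against ND) and -0.0031 (LU against ND), *Prkag1* -0.091 (CLE against HFD) and 0.024 (LU against ND), *Prkab1* -0.013 (CLE against ND), *Eif4ebp1* 0.020 (CLE against ND) and *Eif4ebp3* -0.049 (CLE against LU) without the letter R libraries. With the letter as a covariate they were *Prkab2* 0.055 (HFD against ND) and *Prkag1* -0.035 (CLE against HFD) and 0.022 (LU against ND). The highest row gave *Prkab1* 0.073 (HFD against ND) and 0.14 (LU against ND), *Prkab2* 0.26 (HFD against ND), *Prkag1* -0.0097 (CLE against HFD), *Eif4ebp2* -0.045 (CLE against HFD) and -0.056 (CLE against LU) and *Prkaa2* -0.0018 (CLE against LU). Without class j rows they were *Prkab2* -0.067 (CLE against HFD), -0.060 (LU against HFD), -0.28 (CLE against ND), -0.27 (LU against ND) and -0.0071 (CLE against LU), *Prkag1* -0.0097 (CLE against HFD) and *Prkab1* -0.021 (CLE against ND). Scaling by median ratios gave *Prkab1* -0.031 (LU against HFD) and *Eif4ebp3* 0.0011 (CLE against ND), scaling to equal totals gave *Prkab1* -0.0031 (LU against HFD) and *Eif4ebp3* 0.016 (CLE against ND), and quantile normalization gave *Prkab2* -0.019 (LU against ND). The causes were not tested.

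Leaving out 1 library gave ranges of -0.020 to 0.057 for *Eif4ebp2* (HFD against ND), -0.091 to 0.080 for *Prkag1* (CLE against HFD), -0.091 to 0.18 for *Prkaa1* and -0.086 to 0.078 for *Prkab1* (LU against HFD), -0.029 to 0.12 for *Prkab2* and -0.45 to 0.40 for *Eif4ebp3* (CLE against ND), -0.086 to 0.14 for *Prkab2* and -0.055 to 0.0021 for *Prkag1* (LU against ND), -0.039 to 0.15 for *Prkaa2* and -0.072 to 0.15 for *Prkab2* (CLE against LU).

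ND, CLE and LU share some mouse numbers, which only name mice; HFD shares none. Deviations of same-numbered mice correlated at -0.10 to 0.19. The replicate block was fitted on the ND, CLE and LU libraries alone, with 12558 genes tested. Its terms for the mouse numbers left little to estimate the spread from. Its counts and p are therefore not like for like with the main fit, and their drop cannot be assigned to pairing. With a replicate block, 0 members were called against ND with CLE or LU, genes called fell from 382 to 2 and from 842 to 440, and *Prkag2* in LU against ND had an adjusted p of 0.17 (-0.36), against 0.0087 to 0.17 over its alternatives. Signs changed for *Prkab1* -0.0099 (CLE against ND), *Eif4ebp3* 0.26 (CLE against ND) and *Prkag1* 0.041 (LU against ND).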
